A study of Mus musculus with 2 samples.

Results

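Non-cycling intermediate progenitor cells (IPCs) were described in 2 single-cell RNA sequencing libraries labelled as embryonic mouse brain hemispheres. The paper describes its single-cell data as from the dorsal telencephalon, the brain region that forms the cerebral cortex. IPCs arise from radial glial cells at the ventricle, settle in the subventricular zone, divide a limited number of times and give rise to excitatory cortical neurons. They are defined by the T-box transcription factor Eomes, also called Tbr2, and pass through a stage with high levels of the proneural factor Neurog2 before neuronal genes come up. An IPC that lacks mitotic transcripts may lie between divisions or may have left the cell cycle for neuronal differentiation, and RNA counts of a single moment do not separate these states.

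The cells were chosen by their measured unique molecular identifiers (UMIs), each of which stands for 1 captured mRNA molecule. The quality filter asked for 1500 to 60000 UMIs, of which less than 10% were mitochondrial. A passing cell was selected when it held at least 2 UMIs of Eomes, no UMI of the interneuron genes Dlx1, Dlx2 and Gad2 or of the Cajal-Retzius cell gene Trp73, and no UMI of the mitotic genes Mki67 and Top2a. This left 291 of 8139 passing cells (3.58%, Wilson 95% interval 3.19 to 4.001) in WT replicate 1 and 332 of 8209 (4.04%, 3.64 to 4.49) in WT replicate 6, together 623 of 16348 cells. The mean share was 3.81% ± 0.332 (SD, n = 2 libraries).

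Both libraries came from wild-type (WT) embryos at embryonic day 16.5, labelled as brain hemispheres, and no genotype other than WT entered. The labels name no allele or transgene that these embryos carried, and they do not say whether a library held 1 embryo or several. The series was built around embryos lacking Dot1l in the Emx1-Cre lineage and their controls, and the mutant was not analysed here. Cells were released with papain and captured with the droplet-based 10x Genomics 3' chemistry, which reads mRNA from its 3' end.

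The deposited matrices held 14136 and 13046 cells with 74930397 and 68964234 UMIs in WT replicates 1 and 6. The libraries were separate samples, since Xist, transcribed from the inactive X chromosome, had 76258 and 10 UMIs and the Y-linked gene Ddx3y had 5 and 2193. Among passing cells 26 barcodes occurred in both libraries, and 2 selected cells of WT replicate 6 carried one. A doublet score of the Scrublet type marked 23 (7.90%) and 29 (8.73%) of the selected cells. The median depth of the selected cells was 9227 and 8599 UMIs, against 6924 and 6664 over all passing cells. Their summed counts came to 3008749 and 3040541 UMIs, so a gene without a UMI could still lie at up to 0.997 and 0.987 CPM (the counts-per-million scale of the class sum, with 3 UMIs as the upper limit of a count of 0). All such limits and intervals cover counting error only.

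Eomes itself had a median of 5 and 4 UMIs per selected cell and a maximum of 30 and 21. Of 579 and 613 passing cells with at least 2 Eomes UMIs, 172 and 164 were left out for interneuron or Cajal-Retzius UMIs, most often Gad2 (123 and 122 cells). A further 116 and 117 cells held Mki67 or Top2a UMIs and formed the class of cycling IPCs used below. Exactly 2 Eomes UMIs were found in 49 (16.8%) and 79 (23.8%) of the selected cells. In these cells just inside the threshold, Neurog2 stood at 73.5 and 175 CPM and Neurod1, a later neurogenic factor, at 253 and 231. Just outside it, 142 and 132 otherwise matching cells with 1 Eomes UMI had Neurog2 at 103 and 61.3 CPM and Neurod1 at 178 and 224. The 181 and 163 cells with at least 5 Eomes UMIs had Neurog2 at 558 and 620 CPM. The edge of the selection was therefore graded, with the lowest Neurog2 level near the threshold.

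The label was described with 4 marker genes that the selection had not used. These markers were chosen with earlier results of these data known, so their levels are no independent check of the label. Levels are CPM of the UMIs summed over the cells of a class in 1 library, and the 2 values are WT replicate 1 and WT replicate 6. Since the cells were selected on UMIs of the same cells, the comparison with all other passing cells is given without a test. Neurog2 stood at 432 and 428 CPM in the non-cycling IPCs and at 34.8 and 35.9 in all other cells. Btbd17, a gene of the BTB domain family, stood at 114 and 122 CPM against 12.8 and 13.9. All 4 markers were higher in the selected cells of both libraries, and their library values did not overlap with those of the other cells. Rhbdl3, of the rhomboid family, stood at 145 and 179 CPM against 26.4 and 25.7, and Mfap4, which encodes a microfibril-associated protein, at 144 and 147 against 22.3 and 22.3.

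**Figure D1:**
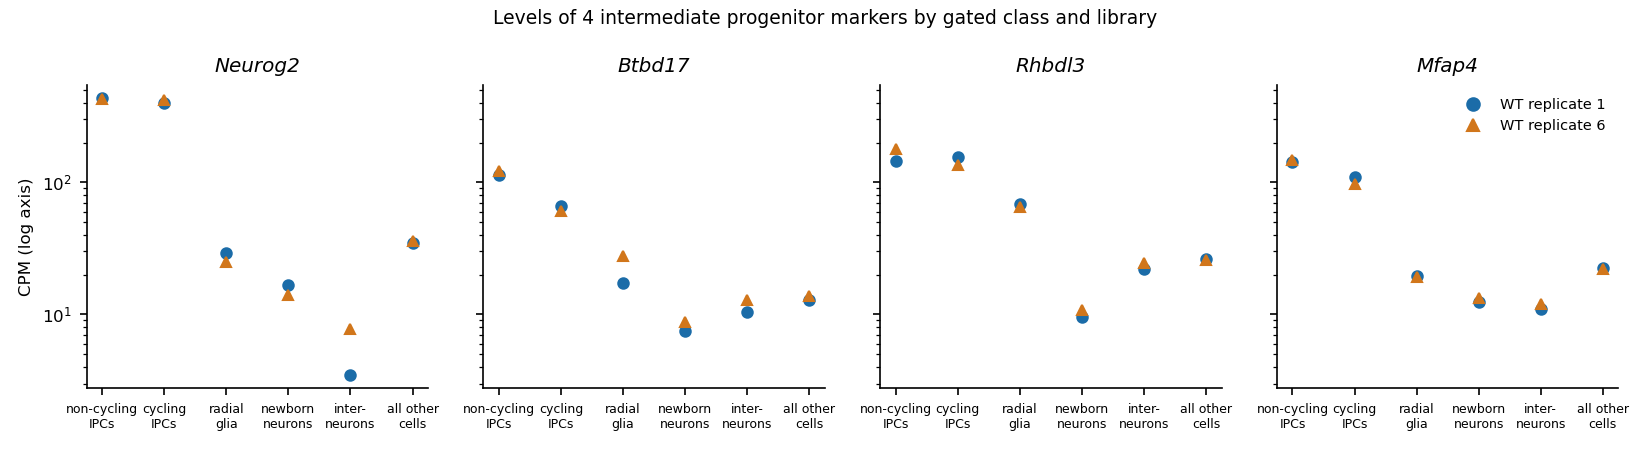
CPM (vertical axes, log scale) of the IPC markers Neurog2, Btbd17, Rhbdl3 and Mfap4 in 6 cell classes. Each library, WT replicate 1 or 6, has 1 point, without error bars. Eomes chose the cells and is not shown. Neurog2, at 432 and 428 CPM in the non-cycling IPCs, lies above radial glia, newborn neurons, interneurons and all other cells in both libraries. Against cycling IPCs, Neurog2 and Rhbdl3 did not pass the edgeR test (log2 differences 0.07 and 0.15, adjusted p = 0.74 and 0.54).

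The share of cells holding at least 1 UMI of a marker was also read after thinning each cell to 2000 UMIs, which left out 0 and 1 of the selected cells and 34 and 36 interneurons as too shallow. Neurog2 was seen in 45.4% and 42.3% of the thinned IPCs (67.7% and 67.5% before thinning). In interneurons, which should lack it and had a median depth of 6821 and 6133.5 UMIs, it was seen in 0.465% and 1.15% (2.25% and 3.996% before thinning). Btbd17 was seen in 18.9% and 24.2% of the thinned IPCs and 1.77% and 2.50% of the thinned interneurons. Each marker was thus found in the selected cells well above its share in interneurons, although no marker was caught in every cell.

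Genes of other cell types were low but present. The interneuron list summed to 88.1 and 83.9 CPM in the non-cycling IPCs against 1907 and 1864 in all other cells, and the microglia list to 13.6 and 13.8 against 203 and 194. Gsx1, a progenitor gene of the ganglionic eminence, was at 0 in both libraries. Vascular and meningeal genes came from a handful of cells. Of the fibroblast UMIs, 278 of 294 and 143 of 152 lay in the 5 cells with the most, and for endothelial genes the numbers were 127 of 149 and 213 of 234. Lists for ganglionic eminence progenitors, striatal neurons, mural cells, fibroblasts and oligodendrocyte precursors also lay below all other cells in both libraries, as did Cajal-Retzius genes at 139 and 57.6 CPM against 172 and 175. Red cell genes summed to 1601 and 1588 CPM, against 14533 and 21400 in all other cells. The hippocampal and medial pallium list was the one list of another cell type that summed higher in the selected cells of both libraries. It stood at 1906 and 1959 CPM against 1686 and 1090, and at 2094 and 2314 in radial glia. Of its 8 genes 3 were higher than in all other cells in both libraries and 4 lay under 10 CPM. Its median log2 ratio to all other cells was -0.43.

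The word non-cycling was examined with 42 S phase genes, none of which the selection used. DNA replication genes were present in the selected cells at a fraction of their level in cycling IPCs. Their sum was 1044 and 938 CPM in the non-cycling IPCs and 3559 and 3765 in cycling IPCs. Radial glia without mitotic UMIs stood at 1638 and 1783 and newborn neurons, which are postmitotic, at 741 and 737. The non-cycling IPCs lay above newborn neurons and below radial glia in both libraries. At 2000 UMIs per cell, which left out 0 to 6 cells of a class and library, 23.7% ± 1.47 of the selected cells (SD, n = 2 libraries) held at least 3 S phase UMIs, against 66.1% ± 2.83 of cycling IPCs, 42.8% ± 0.135 of radial glia and 18.4% ± 0.117 of newborn neurons. Before thinning the share was 92.9% ± 3.66 in the selected cells and 88.4% ± 1.36 in newborn neurons, with depths of 9227 and 8599 against 8773 and 8011 UMIs. The unthinned share therefore separated the classes poorly.

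Among the selected cells, 89 and 85 held at least 10 S phase UMIs, a number chosen after the values were seen. As a description of this choice, they carried Pcna, the sliding clamp of DNA polymerase, at 72.7 and 98.1 CPM against 29.1 and 29.8 in the other selected cells. Ccnd1, a G1 cyclin outside the S phase list, stood at 44.1 and 39.8 CPM against 12.9 and 17.4. Cdkn1c, which acts in cell-cycle exit, was also above the rest, at 157 and 88.3 against 90.2 and 69.6 CPM. Neurod1 stood the other way, at 129 and 116 against 217 and 187 CPM, as did the progenitor factor gene Pax6 at 98.0 and 85.4 against 129 and 96.0 CPM. These cells were also deeper, with a median of 11129 and 10801 UMIs against 8670.5 and 8034, and the part of depth in these differences was not tested.

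**Figure D2:**
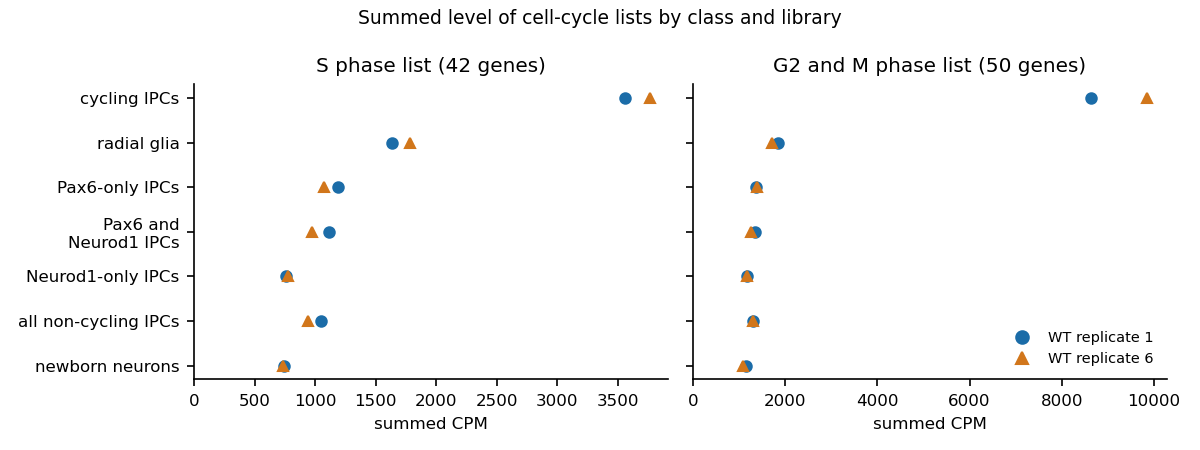
Summed CPM of the S phase list and of the G2 and M phase list by cell class, with 1 point per library. Cycling IPCs stand apart at 3559 and 3765 CPM of S phase UMIs, while all non-cycling IPCs lie at 1044 and 938 and newborn neurons at 741 and 737.

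Beyond the markers, the 20 genes with the highest ratio to all other passing cells in both libraries, among genes with at least 50 CPM in the selected cells, were Eomes, Neurog2, Btbd17, Agbl4, Mfap4, Celsr1, Rhbdl3, Thrb, Lama2, Snhg18, Ust, Tmem163, Plcxd2, Nrn1, Mfng, Abcd2, Kif26b, Sstr2, Hs3st1 and Synpr. Of 3591 genes at that level, 165 (4.59%) had a ratio of at least 2-fold in both libraries. Agbl4, a carboxypeptidase that trims glutamate chains from tubulin, stood at 394 and 512 CPM against 57.7 and 48.1. Celsr1, an atypical cadherin of planar cell polarity, stood at 169 and 166 CPM against 30.6 and 29.2. Both genes were higher in the selected cells of both libraries, which the ranking required. Kif26b, of the kinesin family, stood at 470.3 and 463 CPM against 106 and 101. The list also held Lama2, a laminin chain gene, Mfng, a fringe glycosyltransferase gene, Hs3st1, a heparan sulfate sulfotransferase gene, and Sstr2, a somatostatin receptor gene.

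Non-cycling radial glia were the first class for a test across all genes. They held at least 2 Slc1a3 and 1 Pax6 UMIs, no Eomes UMI, and none of the excluding or mitotic UMIs, and numbered 93 and 76 cells with a median depth of 9968 and 8901.5 UMIs. UMIs were summed per class and library and compared 2 against 2 with edgeR's quasi-likelihood test, with p-values adjusted by Benjamini-Hochberg over all genes tested. These p-values measure the spread between 2 libraries. As the classes were gated on UMIs of the cells that were then compared, genes that go with a gate gene differ by construction, and the gate genes themselves were left out. Of 11533 genes tested, 2937 (25.5%) differed, 1245 (10.8%) higher and 1692 (14.7%) lower in the non-cycling IPCs.

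Genes of neurogenic commitment made up the clearest group, with 22 of 24 tested genes higher than in radial glia and none lower, against 10.8% and 14.7% of all genes. Their median log2 difference was 2.52, beside 0.00 over all genes tested. The list holds the markers Neurog2, Btbd17, Rhbdl3 and Mfap4 and was chosen with earlier results of these data known. Its counts are therefore a description of the classes. Neurog2 stood at 432 and 428 CPM in the IPCs and 29.1 and 24.9 in radial glia (log2 difference 4.03 ± 0.16 SE, adjusted p = 6.7e-07). Gadd45g, a growth arrest gene of newly committed neurons, stood at 219 and 202 CPM against 24.8 and 33.7 (log2 difference 2.92 ± 0.18 SE, adjusted p = 3.5e-06). The libraries of the classes did not overlap for either gene. Mfap4 differed by 2.96 ± 0.18 SE, Btbd17 by 2.48 ± 0.21 SE, Slc17a6, the vesicular glutamate transporter VGLUT2, by 3.12 ± 0.16 SE and Kif26b by 3.86 ± 0.17 SE on the log2 scale. The zinc finger factor Insm1 and the Hes family member Hes6 were also higher (1.44 and 1.56). Neurod4, a proneural factor, had 23.3 and 21.0 CPM in the IPCs and no UMI in radial glia, where 3 UMIs would be 3.23 and 4.40 CPM.

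Notch signalling passes between neighbouring cells. Ligands of the Delta and Jagged families on one cell bind Notch receptors on the next, the receptor's cleaved tail joins the DNA-binding protein Rbpj, and Hes and Hey repressors are transcribed and hold back proneural genes. All 3 receptors tested were lower in non-cycling IPCs than in radial glia, where 14.7% of all genes tested were lower. Notch1 stood at 48.5 and 54.3 CPM against 147 and 139 (log2 difference -1.43 ± 0.14 SE, adjusted p = 5.6e-05). Notch2 stood at 27.6 and 20.4 against 249 and 271 CPM (-3.38 ± 0.17 SE) and Notch3 at 4.65 and 2.96 against 57.0 and 70.4 (-3.98 ± 0.31 SE). The effectors moved apart, with Maml2 lower (-1.33) and the coactivators Maml1 (0.99) and Maml3 (1.68) and Rbpj (0.57) higher.

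Of 4 Notch target genes tested, 3 were lower and none higher, beside 14.7% and 10.8% of all genes. The fourth, Nrarp, passed as lower with the library as a block (adjusted p = 0.017). Hes5, the main Notch effector of radial glia, stood at 7.98 and 9.21 CPM against 223 and 175 (log2 difference -4.48 ± 0.19 SE, adjusted p = 6.7e-07). Hes1 stood at 5.32 and 1.64 CPM against 76.4 and 55.8 (log2 difference -4.19 ± 0.40 SE, adjusted p = 4.7e-05). The libraries of the classes did not overlap for either repressor. At 2000 UMIs per cell, Hes5 was found in 0.687% and 1.81% of the IPCs (4.12% and 6.33% before thinning), in 1.67% and 0.962% of interneurons and in 36.3% and 28.0% of radial glia. The share in the IPCs lay at the level of the interneurons. That class was gated without a limit on mitotic UMIs, and its G2 and M phase list summed to 5294 and 5408 CPM. Whether the share in the IPCs is background was not tested. Hey1 was lower as well (-1.65 ± 0.45 SE).

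Of 10 ligands and modulators tested 2 were higher and 2 lower, beside 10.8% and 14.7% of all genes. Mfng, a fringe enzyme that adds sugars to Notch receptors, stood at 118 and 111 CPM against 8.61 and 10.3 (log2 difference 3.66 ± 0.22 SE, adjusted p = 3.4e-06). Lfng, of the same enzyme family, had 3 and 2 UMIs in the IPCs, or 0.997 and 0.658 CPM, against 20.4 and 29.3 in radial glia, and passed the test as lower. Both fringe genes thus differed in opposite directions. Dll3, a ligand that acts within the cell, was higher (1.81 ± 0.52 SE) and the ligand Jag1 lower (-1.66 ± 0.29 SE). The ligand Dll1 stood at 16.6 and 15.8 CPM against 5.38 and 11.7 and did not pass the test (log2 difference 1.04 ± 0.40 SE, adjusted p = 0.088). In DESeq2, an alternative count test, the calls of Hey1, Rbpj, Maml1, Dll3 and Jag1 were lost.

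**Figure D3:**
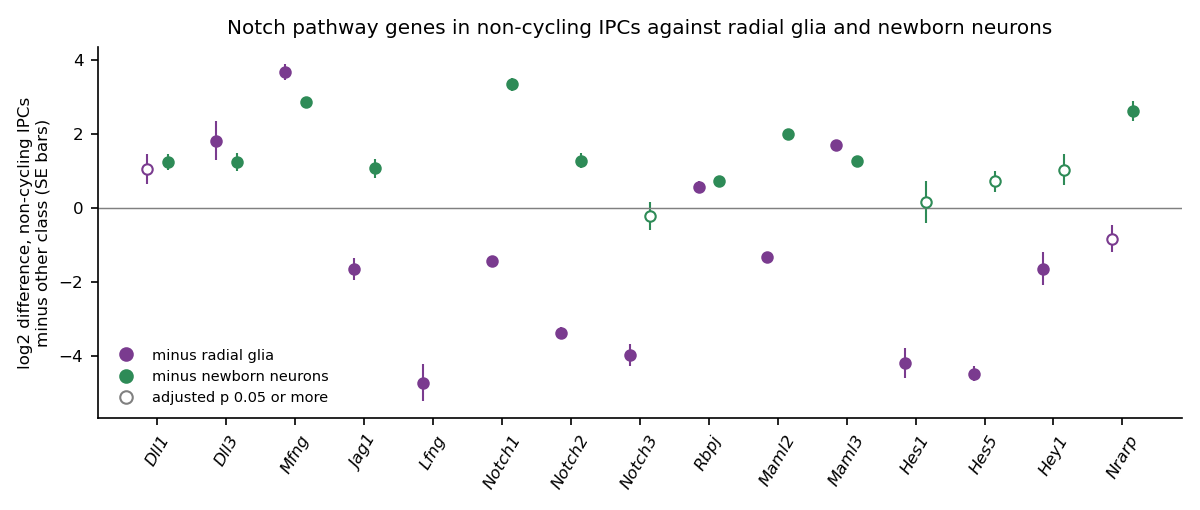
Log2 differences of Notch pathway genes (vertical axis, bars are SE) in the non-cycling IPCs minus radial glia and minus newborn neurons, where filled points have an adjusted p under 0.05 and open points do not. Hes5 and Hes1 lie at -4.48 and -4.19 against radial glia, while Notch1 lies below 0 against radial glia and above 0 against newborn neurons.

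The rest of the radial glia programme was lower too, with 26 of 31 tested genes lower and 2 higher, beside 14.7% and 10.8% of all genes. The radial glia were gated on Slc1a3 and Pax6, so genes that go with these differ by construction. Fabp7, the brain fatty acid binding protein, stood at 449 and 491 CPM against 8226 and 11315 (log2 difference -4.33 ± 0.17 SE, adjusted p = 6.7e-07). Tnc, the matrix protein tenascin C, differed by -5.01 ± 0.17 SE, the receptor phosphatase Ptprz1 by -3.50 ± 0.14 SE and the homeodomain protein gene Hopx by -2.79 ± 0.22 SE. The neural progenitor factor Sox2 was lower by less, at 72.5 and 63.1 CPM against 235 and 241 (-1.76 ± 0.13 SE), as was the intermediate filament gene Vim at 531 and 436 against 1312 and 1614 (-1.55 ± 0.15 SE). The exceptions were the dorsal patterning factors Emx1 (1.94 ± 0.18 SE) and Lhx2 (1.34 ± 0.13 SE), both higher in the IPCs. Sox2 and Vim were thus lower than in radial glia but kept a larger share of the radial glia level than Fabp7, Tnc, Ptprz1 or Hopx.

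Neuronal genes were already above radial glia, with 19 of 28 newborn neuron genes higher and 2 lower. Dcx, the microtubule protein doublecortin, stood at 537 and 579 CPM against 157 and 120.3 (log2 difference 2.05 ± 0.15 SE, adjusted p = 1.1e-05), and the deep layer factor Tbr1 at 66.1 and 70.7 CPM against 23.7 and 4.40 (2.20 ± 0.36 SE). Of the guidance, adhesion and migration genes 13 of 24 were higher and 3 lower, led by the netrin receptor gene Dcc at 4458 and 4295 CPM against 513 and 301 (3.47 ± 0.21 SE). Ephrins and Eph receptors had 6 of 16 higher and 3 lower. Layer factors were mixed, with 5 of 10 upper layer and 3 of 11 deep layer genes higher and 2 and 3 lower. Over all genes tested 10.8% were higher and 14.7% lower. Synpr, a synaptic vesicle protein gene and the tested gene with the largest increase by the rule for named genes, stood at 94.4 and 108 CPM against 1.08 and 4.40, where the radial glia values rest on 1 and 3 UMIs. Of the 10 genes with the largest decrease, Tnc and Hes5 are described above, and the others included the folate enzyme gene Aldh1l1 (-5.24), the membrane protein gene Mlc1 (-4.79) and Pdzph1, which had 1 and 0 UMIs in the IPCs against 50.6 and 64.6 CPM in radial glia.

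Promoter sequences were read for the groups with the clearest differences. RefSeq windows of 250 bases before to 50 after the start site, on GRCm38.p6, were searched on both strands for CAGATG, a form of the E-box bound by Neurog and Neurod factors, and for TGGGAA, the core of the Rbpj site. CAGATG was in 17.2% of 32851 windows and TGGGAA in 25.6%. Of the top 20 genes 14 matched with 16 windows, of which 1 (6.25%) held CAGATG and 3 (18.8%) TGGGAA. The neurogenic commitment list had CAGATG in 5 of 24 windows (20.8%), and the radial glia list had TGGGAA in 15 of 36 (41.7%). Windows of a gene can overlap, and 3 of the 5 with CAGATG are of Elavl4. Counted by gene, CAGATG was in 3 of 18 commitment genes against 5196 of all 27025 genes, and TGGGAA in 12 of 29 radial glia genes against 7651. Of the Notch targets, 3 genes matched with 3 windows, and 2 of these held TGGGAA. Matches are letters in a window and not measured sites.

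The 250 bases upstream of 3 start sites are shown 5′ to 3′ along the gene with the matches in capitals, Hes5 as a Notch target gene that was lower in the IPCs, and Slc17a6 and Lama2 as genes higher in the IPCs that hold the E-box. The Hes5 window lies at chr4:154960673-154960922 on the plus strand, with capitals for the Rbpj core from positions -226 and -82. The Slc17a6 window lies at chr7:51624387-51624636 on the plus strand and the Lama2 window at chr10:27616943-27617192 on the minus strand, with capitals for CAGATG or its reverse complement from -205 and -180. The Lama2 window also holds TGGGAA or its reverse complement from -21, left in lower case.
Hes5: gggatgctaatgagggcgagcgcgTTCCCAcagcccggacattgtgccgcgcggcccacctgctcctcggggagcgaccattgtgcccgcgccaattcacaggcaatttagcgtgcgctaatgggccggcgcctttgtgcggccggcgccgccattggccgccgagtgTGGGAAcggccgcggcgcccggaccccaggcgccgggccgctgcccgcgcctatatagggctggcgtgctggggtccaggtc
Slc17a6: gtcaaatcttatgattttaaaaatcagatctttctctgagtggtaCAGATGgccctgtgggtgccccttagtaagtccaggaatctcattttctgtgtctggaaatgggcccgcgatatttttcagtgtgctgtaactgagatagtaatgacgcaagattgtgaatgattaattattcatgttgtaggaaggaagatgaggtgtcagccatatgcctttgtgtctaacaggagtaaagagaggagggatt
Lama2: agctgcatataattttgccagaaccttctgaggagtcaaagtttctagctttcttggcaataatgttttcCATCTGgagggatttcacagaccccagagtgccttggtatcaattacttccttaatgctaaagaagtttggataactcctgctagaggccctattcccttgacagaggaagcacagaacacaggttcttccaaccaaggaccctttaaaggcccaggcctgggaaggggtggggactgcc

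Newborn excitatory neurons formed the second class for the test. They held at least 2 Neurod6 and 2 Unc5d UMIs and none of Eomes or the excluding and mitotic genes, and numbered 1073 and 1204 cells with a median depth of 8773 and 8011 UMIs. Of 13636 genes tested, 4690 (34.4%) differed, 2322 (17.0%) higher and 2368 (17.4%) lower in the non-cycling IPCs. The gates of newborn neurons and radial glia do not exclude each other. Both tests also use the same IPC sums, so their results are given side by side and not compared.

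Neurogenic commitment genes were higher than in newborn neurons for 21 of 25 tested genes, and 1 was lower, against 17.0% and 17.4% of all genes. These counts are a description as well, since the list was chosen with earlier results of these data known. Neurog2 stood at 432 and 428 CPM in the IPCs and 16.8 and 14.1 in newborn neurons (log2 difference 4.72 ± 0.11 SE, adjusted p = 1.1e-06). Gadd45g stood at 219 and 202 CPM against 10.9 and 12.5 (log2 difference 4.09 ± 0.10 SE, adjusted p = 1.1e-06). Rhbdl3 (3.91 ± 0.13 SE), Btbd17 (3.78 ± 0.12 SE) and Mfap4 (3.42 ± 0.09 SE) were likewise higher. The exception was Sox11, a factor of neuronal maturation, at 2250.4 and 2358 CPM against 2981 and 2964 (-0.44 ± 0.08 SE). Tmem163, a zinc transporter gene of the top 20 list, stood at 130.0 and 120.0 CPM against 2.98 and 3.48 (5.19 ± 0.13 SE).

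Radial glia genes were still above the level of newborn neurons, with 25 of 33 tested genes higher and 3 lower. Over all genes tested 17.0% were higher and 17.4% lower. Sox2 stood at 72.5 and 63.1 CPM in the IPCs, 9.79 and 7.89 in newborn neurons and 235 and 241 in radial glia (2.86 ± 0.15 SE against newborn neurons). Vim stood at 531 and 436 CPM against 60.2 and 61.2 in newborn neurons (2.92 ± 0.11 SE). For both genes the non-cycling IPCs lay between the other classes in each library. Tfap2c, a transcription factor of basal progenitors, stood at 43.5 and 37.2 CPM against 1.34 and 1.32 (4.83 ± 0.21 SE). Of the Notch genes, Notch1 stood at 48.5 and 54.3 against 5.66 and 4.04 CPM (3.33 ± 0.18 SE), and Dll1 (1.23 ± 0.21 SE), Dll3 (1.23 ± 0.24 SE) and Mfng (2.84 ± 0.12 SE) were among 7 of 12 ligands and modulators that were higher. Dner was the single ligand or modulator gene that was lower (-1.24). Of 4 target genes tested Nrarp was higher and none lower.

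Neuronal maturation genes lay below newborn neurons, with 18 of 26 tested genes lower and 3 higher, beside 17.4% and 17.0% of all genes. Stmn2, a regulator of microtubules in growth cones, stood at 324 and 333 CPM against 1225 and 1337 (log2 difference -2.04 ± 0.09 SE, adjusted p = 5.6e-06). The cell adhesion gene Cntn2 differed by -2.65 ± 0.12 SE and the semaphorin receptor gene Nrp1 by -2.65 ± 0.12 SE. All 3 genes were lower in the IPCs of both libraries. Upper layer factors were lower for 7 of 10 genes and higher for 1. Cux1, a homeodomain factor of upper layer neurons, stood at 311 and 299 CPM against 568 and 579 (log2 difference -0.99 ± 0.08 SE, adjusted p = 7.6e-05). Of 11 deep layer factors 5 were lower and 4 higher, Foxp2 among the latter at 509 and 536 CPM against 63.8 and 69.8 (2.89 ± 0.09 SE).

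Guidance genes split, with 7 of 25 higher and 13 lower than in newborn neurons, beside 17.0% and 17.4% of all genes. Dcc was higher (1.21 ± 0.08 SE), while Robo1 (-1.69 ± 0.23 SE), a receptor for Slit proteins, was lower. Ephrins and Eph receptors had 5 of 17 higher and 8 lower. The ephrin receptor Epha4 stood at 516 and 523 CPM against 218 and 229 (1.14 ± 0.08 SE), and the ephrin Efnb2 at 139.9 and 147 against 253 and 252 (-0.89 ± 0.07 SE). Of 11 neurexin and neuroligin genes, which join synapses, 7 were lower and 1 higher. Nrxn3 was the one that was higher (1.36 ± 0.14 SE). Genes of G1 control were higher for 15 of 23 and lower for 1, with Ccnd2, a cyclin known from basal progenitors, at 339 and 358 CPM against 58.8 and 60.6 (log2 difference 2.47 ± 0.07 SE, adjusted p = 1.6e-06).

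**Figure D4:**
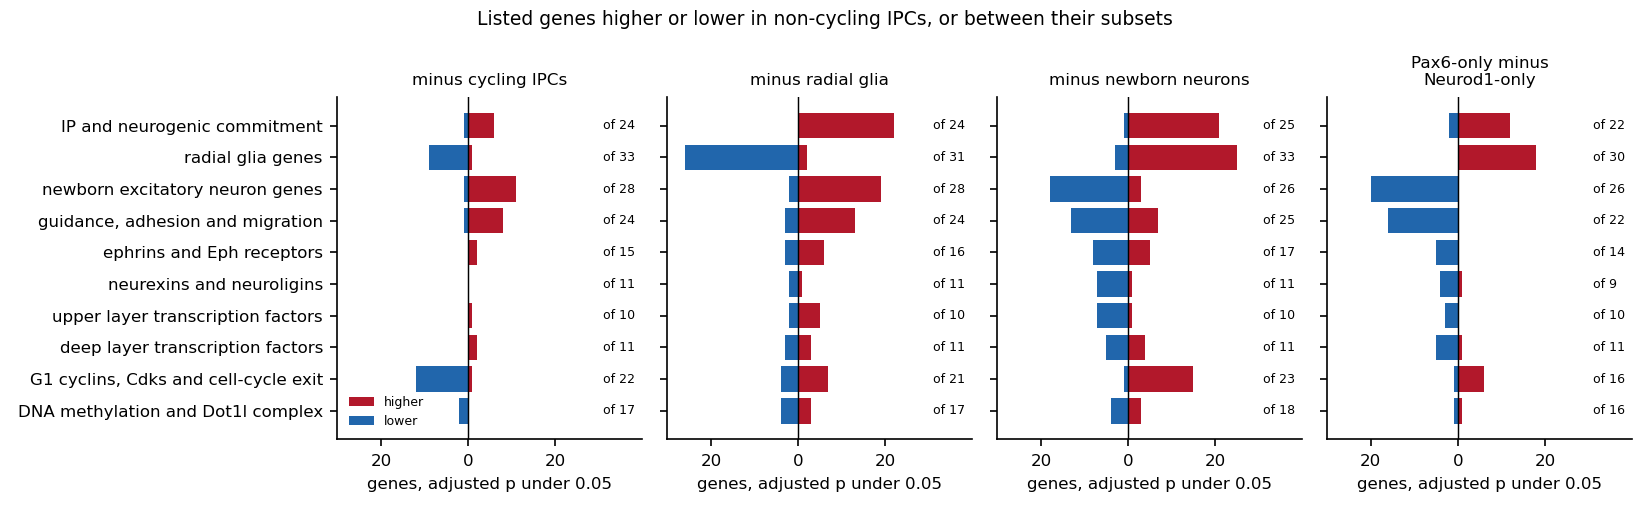
Numbers of tested genes per list (horizontal axis) that were higher, drawn to the right, or lower, drawn to the left, at an adjusted p under 0.05 in 4 comparisons, with the number tested beside each bar pair. The commitment list has 22 of 24 genes higher against radial glia and 21 of 25 against newborn neurons, and the radial glia list has 26 lower in the first and 25 higher in the second.

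Cycling IPCs met the same gate but held at least 1 Mki67 or Top2a UMI, 116 and 117 cells with a median depth of 12470.5 and 10695 UMIs. Doublet scores marked 25.0% and 25.6% of them, against 7.90% and 8.73% of the non-cycling IPCs. Of 11416 genes tested, 1227 (10.7%) differed, 383 (3.35%) higher and 844 (7.39%) lower in the non-cycling IPCs. With the library as a block, since both sums of a library come from the same sample, 1936 genes differed, 756 of them higher. All 42 tested S phase genes and 49 of 50 G2 and M phase genes were lower, which is the contrast that chose the cells and carries no further weight.

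Other lists held fewer genes that differed, where 3.35% of all genes tested were higher and 7.39% lower. Of 24 commitment genes 6 were higher and Insm1 was lower, with Neurod1 at 181 and 163 CPM against 76.7 and 101 (log2 difference 0.96 ± 0.14 SE, adjusted p = 0.0019). Slc17a6 stood at 258 and 273 CPM against 131 and 158 (0.88 ± 0.12 SE) and Insm1 at 128 and 126 against 236 and 237 (-0.90 ± 0.10 SE). Neurog2 stood at 432 and 428 CPM against 402 and 419 and did not pass the test (log2 difference 0.07 ± 0.10 SE, adjusted p = 0.74). Nor did the marker Rhbdl3 (log2 difference 0.15, adjusted p = 0.54). The marker Btbd17 was higher (0.89 ± 0.13 SE), as was Mfap4 (0.48 ± 0.12 SE), whose call was lost in DESeq2 and without doublet-scored cells. Newborn neuron genes were higher for 11 of 28 and lower for 1. Unc5d, a netrin receptor of migrating upper layer neurons, stood at 3178 and 3474 CPM against 1782 and 1749 (log2 difference 0.91 ± 0.09 SE, adjusted p = 1.9e-04). Radial glia genes were lower for 9 of 33, with Nes, an intermediate filament gene of progenitors, at 18.3 and 13.8 CPM against 54.6 and 46.8 (-1.66 ± 0.21 SE), and higher for Emx1 (0.66 ± 0.12 SE), a call lost in DESeq2 (adjusted p = 0.11), without the low-count filter and after thinning.

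Without the block, the single Notch gene to differ was Notch1 (-0.54 ± 0.14 SE), a call that was lost in DESeq2 and when the Eomes minimum was raised to 3 UMIs, and none of 9 ligands and modulators, 3 targets or 11 neurexin and neuroligin genes passed. With the library as a block, Notch2 (adjusted p = 0.022), the ligand gene Jag1 (0.032), the target gene Hes5 (0.040) and the neurexin gene Nrxn3 (0.012) passed as lower, and Maml3 (0.0056) and the neuroligin gene Nlgn1 (0.018) as higher. Cell-cycle genes go with the mitotic genes that chose the cells, and Ccne2 of the G1 list is also on the S phase list. The G1 counts are therefore a description, beside 7.39% of all genes lower and 3.35% higher. Among G1 genes 12 of 22 were lower, with Ccnd1 at 25.6 and 25.0 CPM against 60.4 and 73.7 (-1.40 ± 0.16 SE). The Cdk inhibitor gene Cdkn1c, which acts in cell-cycle exit, was the one that was higher, at 117 and 76.0 CPM against 40.3 and 56.7 (log2 difference 1.001 ± 0.23 SE, adjusted p = 0.025), and its call was lost without doublet-scored cells. Of the 10 genes with the largest increase, Shisa9, an AMPA receptor auxiliary protein gene, stood at 178 and 167 CPM against 53.9 and 49.6 (log2 difference 1.73 ± 0.12 SE, adjusted p = 1.9e-05). The nuclear receptor gene Nr2f2 (1.44 ± 0.23 SE), Agbl4 (1.38 ± 0.14 SE) and Lama2 (1.36 ± 0.16 SE) were also among them. Vascular and meningeal genes moved in the same direction, with 2 of 3 endothelial, 2 of 2 mural and 3 of 4 fibroblast genes tested higher than in cycling IPCs. Most of their UMIs lay in 5 cells per library, and their part in the other differences was not tested.

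The selected cells varied among themselves along Pax6, the radial glia factor, and Neurod1. Pax6 without Neurod1 was found in 87 and 96 cells, both in 86 and 75, Neurod1 without Pax6 in 76 and 97 and neither in 42 and 64. Of 9088 genes tested between the Pax6-only and Neurod1-only cells, 1163 (12.8%) differed, 480 (5.28%) higher and 683 (7.52%) lower in the Pax6-only cells. Pax6 and Neurod1 were left out of this test. As they split the same cells, genes that go with either factor differ by construction. The counts of radial glia and neuronal genes below are therefore a description of this split. Neurog2 stood at 736 and 827 CPM in Pax6-only, 296 and 246 in double-positive and 128 and 129.9 in Neurod1-only cells (log2 difference 2.55 ± 0.15 SE, adjusted p = 4.9e-06 between the first and the last). Its level was thus graded over the subsets in both libraries. Gadd45g followed the same order, at 415 and 407 CPM, 110.4 and 84.3 and 71.9 and 61.6 (log2 difference 2.58 ± 0.16 SE, adjusted p = 6.8e-06), as did the antiproliferative gene Btg2 (2.30 ± 0.18 SE).

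Commitment genes were higher in Pax6-only cells for 12 of 22 and lower for 2, Slc17a6 (-1.83 ± 0.15 SE) and Sox11 (-1.04 ± 0.11 SE). Over all genes tested 5.28% were higher and 7.52% lower. Dll1 stood at 37.2 and 34.7 CPM in Pax6-only and 3.59 and 4.40 (3 and 4 UMIs) in Neurod1-only cells (log2 difference 3.08 ± 0.42 SE, adjusted p = 5.8e-04), and Notch1 at 72.2 and 82.1 against 18.0 and 22.0 (1.89 ± 0.25 SE). Ligand and receptor transcripts were thus both higher in the Pax6-only cells, and Dll1 was the single one of 8 ligands and modulators to pass. Radial glia genes were higher for 18 of 30 and lower for none. Sox2 stood at 136 and 131 CPM against 24.0 and 18.7 (log2 difference 2.60 ± 0.22 SE, adjusted p = 2.5e-05), and Vim differed by 2.45 ± 0.26 SE and Mfge8, a milk fat globule protein gene, by 3.85 ± 0.35 SE. S phase UMIs summed to 1185 and 1077 CPM in Pax6-only cells and 760.5 and 779 in Neurod1-only cells, beside the 741 and 737 of newborn neurons.

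Neuronal genes ran the other way, with 20 of 26 newborn neuron genes lower in Pax6-only than in Neurod1-only cells and none higher. The shares over all genes tested were 7.52% lower and 5.28% higher. Tubb3, neuronal tubulin, stood at 324 and 338 CPM against 689 and 776 (log2 difference -1.19 ± 0.14 SE, adjusted p = 2.0e-04). Unc5d stood at 1460.3 and 1741 CPM against 4262 and 4382 (log2 difference -1.48 ± 0.11 SE, adjusted p = 1.3e-05), and the secreted guidance gene Sema3c at 84.6 and 74.0 against 331 and 285 (-1.99 ± 0.16 SE). Of 22 guidance genes 16 were lower and none higher, and of 14 ephrin and Eph genes 5 were lower and none higher. Of 9 neurexin and neuroligin genes 4 were lower, and Nrxn3 was higher (1.73 ± 0.22 SE). Layer factors were lower for 3 of 10 upper and 5 of 11 deep layer genes, and Foxp2 alone was higher (0.56 ± 0.14 SE), a call lost in DESeq2.

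**Figure D5:**
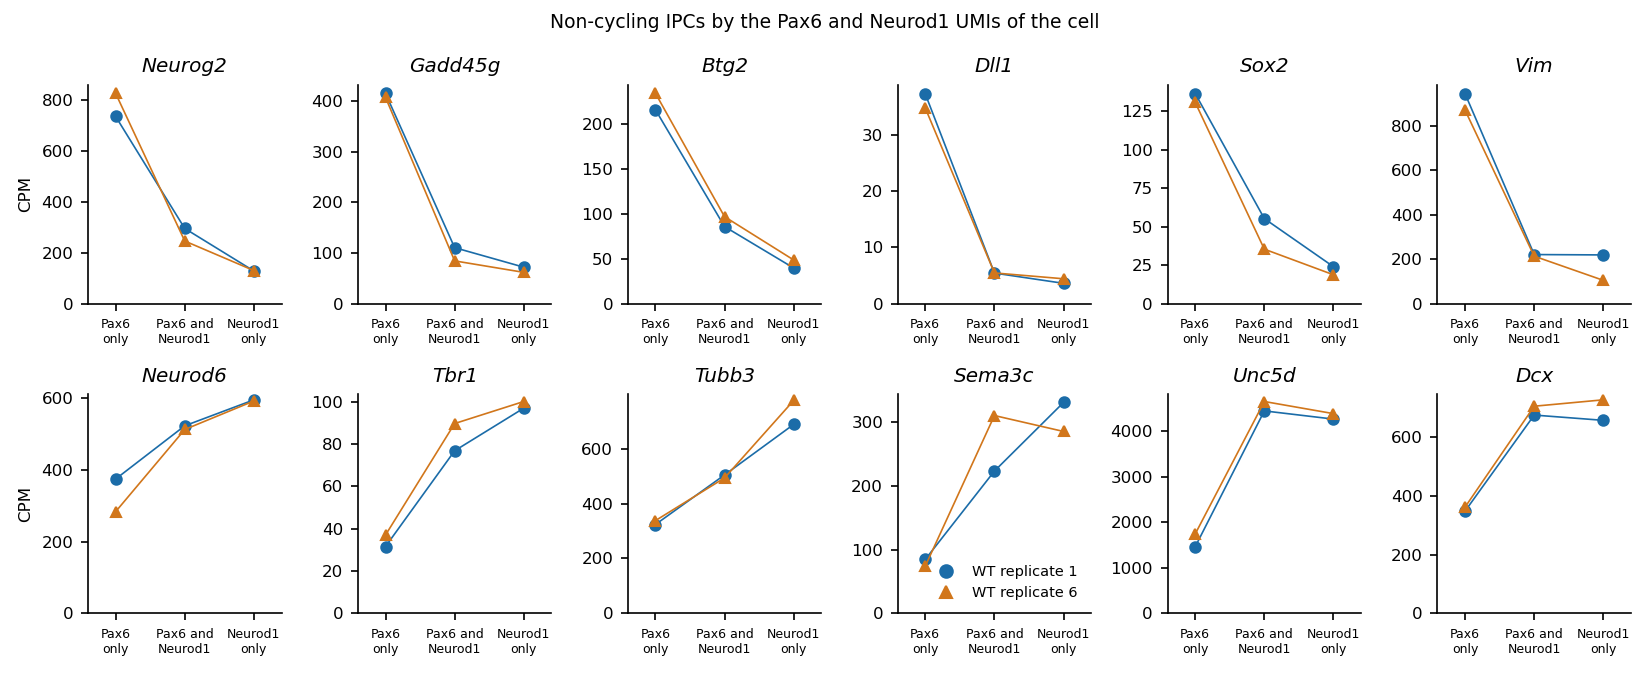
CPM (vertical axes, from 0) of 12 genes in Pax6-only, double-positive and Neurod1-only non-cycling IPCs, with 1 line per library joining the 3 subsets. Neurog2 and Dll1 step down from left to right in both libraries, and Tubb3 and Unc5d are higher in Neurod1-only than in Pax6-only cells.

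Genes of DNA methylation and of the Dot1l complex were followed because the series concerned Dot1l. Dot1l stood at 48.2 and 36.2 CPM in the non-cycling IPCs, 40.9 and 40.4 in cycling IPCs, 28.0 and 27.9 in radial glia and 42.4 and 41.9 in newborn neurons and passed no test (log2 differences 0.05, 0.64 and -0.08). Dnmt1, the maintenance DNA methyltransferase, was lower than in cycling IPCs, at 37.9 and 42.8 CPM against 101 and 116 (log2 difference -1.42 ± 0.14 SE, adjusted p = 1.5e-04). Its partner Uhrf1, which recruits it to replicating DNA, is also on the S phase list, so its lower level belongs to the contrast that chose the cells. Dnmt1 stood at 45.7 and 52.4 CPM in selected cells with at least 10 S phase UMIs against 32.5 and 37.8 in the others. The part of the cell cycle in the Dnmt1 difference was not tested. No other of the 17 list genes tested against cycling IPCs passed, while Mbd2 (adjusted p = 0.041) and Mbd3 (0.043), of the methyl-CpG-binding family, passed as lower with the library as a block. Against radial glia 3 of 17 were higher and 4 lower, beside 10.8% and 14.7% of all genes, with the de novo enzyme gene Dnmt3a at 38.9 and 41.8 CPM against 85.0 and 110.0 (-1.21 ± 0.17 SE). Against newborn neurons 3 of 18 were higher and 4 lower, Dnmt1 among the lower, beside 17.0% and 17.4% of all genes.

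Few genes differed between the libraries in the selected cells. Of 4001 genes with at least 50 CPM in a library, 30 (0.750%) differed by at least 2-fold, and Xist, Tsix, Ddx3y, Eif2s3y and Uty, which differ by sex chromosome content, were 5 of them. Tenm2, a teneurin adhesion gene, stood at 800.0 CPM in WT replicate 1 and 375 in WT replicate 6, and Trpm3, a cation channel gene, at 98.7 and 25.0. Reln, the secreted protein of Cajal-Retzius cells, stood at 67.8 and 31.2 CPM. Kcnip4, a potassium channel partner, was the one gene outside the Y chromosome that was higher in WT replicate 6, at 136 and 295. With 1 library on each side these differences were not tested.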

How the data were processed

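The deposited files hold raw UMI counts per gene and cell for 32285 genes in 2 libraries, which the authors made with Cell Ranger 7.0.0 without normalization. The submitters' processing notes name the build mm10, and whether intronic reads were counted is not given in the sources used here. Intronic reads would raise the counts of long genes, so each test compared a gene only with itself. The shallowest deposited cell had 500 UMIs, so barcodes below that depth were absent.

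Barcodes outside 1500 to 60000 UMIs or with 10% or more mitochondrial UMIs were dropped, and the rest were gated on raw UMIs. Doublets were scored with a Scrublet-type method (2 simulated doublets per cell, 30 principal components of 2000 variable genes), and left out only in an alternative. Counts were summed per library and class, and classes were compared with edgeR 4.0.16 (quasi-likelihood, TMM scaling, its low-count filter, two-sided, Benjamini-Hochberg, called at an adjusted p under 0.05). The SE of a log2 difference comes from this fit. Ratios to all other cells used a prior count of 0.5.

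The members, gene lists and gates were chosen with earlier results of these data known. Beyond markers and listed genes, named genes were the 20 with the largest smaller-of-both-libraries ratio to all other cells, and in each test the 10 with the largest difference in each direction at 50 CPM or more in both libraries of the higher class. The levels by S phase load, and genes differing between libraries, were chosen after their values were seen. The sums of a library come from the same sample, which pairs the libraries across classes. The correlation of same-library deviations was 0.22, 0.19, 0.29 and 0.21 in the tests against cycling IPCs, radial glia and newborn neurons and between the Pax6-only and Neurod1-only cells. Alternatives were the library as a block, DESeq2 1.42.0, no TMM scaling, no low-count filter, all classes in one fit, doublets left out, a stricter cell filter (3000 to 30000 UMIs, under 5% mitochondrial), thinning to 2000 UMIs, other Eomes minimums and single libraries. Single values of 3 listed genes are not reported here.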

Additional observations from a re-analysis of the deposited data

Results flagged for a closer look

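Barcodes outside the quality filter were used in no comparison, and some met the same gate on Eomes and the excluding and mitotic genes. They were 21 of 5997 such barcodes in WT replicate 1 (0.3502%, Wilson 95% interval 0.229 to 0.535) and 14 of 4837 in WT replicate 6 (0.289%, 0.172 to 0.485). A count of 0 would have allowed a share of up to 0.05003% and 0.0620%. The share was lower than the 3.58% and 4.04% among passing cells, and what these barcodes contain was not tested.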

How the results depend on the processing

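Directions of called genes kept their sign in nearly all settings. For 480 calls of listed or named genes over the 4 tests, 4168 alternative values were computed outside single libraries. Of these values, 3825 kept the direction and the call, 342 lost the call and 1 changed sign. The share of non-cycling IPCs was 5.49% with at least 1 Eomes UMI, 3.03% with at least 3, 5.54% under the stricter cell filter and 2.02% when cells were thinned before gating, and 3.58% to 4.04% in single libraries. Selected cells with 3 or more S phase UMIs were 23.7% after thinning to 2000 UMIs, 74.7% with a minimum of 5 UMIs, and 90.4% to 95.5% in single libraries. The counts against cycling IPCs, radial glia and newborn neurons and between the Pax6-only and Neurod1-only cells were 607, 1359, 2865 and 404 with DESeq2, 409, 1284, 2923 and 302 without the low-count filter and 405, 1356, 2377 and 457 after thinning, which leaves fewer UMIs. Of the genes that differed from cycling IPCs, 117 were higher with DESeq2, 35 without the low-count filter and 104 after thinning, against 383 of 1227. The cause of the other changes was not tested. With the library as a block, which uses the pairing, 1936 genes differed from cycling IPCs (756 higher), no listed gene lost its call, and the other counts stayed within 1.5 times.

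Outside single libraries, signs changed for 4 values of the genes given here that passed the test in the main fit or the alternative. Sign changes of values that passed in neither were not counted. Without doublet-scored cells, Nrp1 (0.58, from -0.01) was positive against cycling IPCs, and Notch3 (1.55, from -0.23) was positive against newborn neurons. After thinning, Tnc stood at 0.41 against cycling IPCs, from -0.91. With at least 3 Eomes UMIs, Nrp2 stood at -0.25 against newborn neurons, from 0.03. Of these 4, only Tnc had passed the main test. Without 1 library no residual degrees of freedom remain, so single libraries gave values and no counts. At 2 libraries a class, a gene that misses the threshold is not shown to be equal, and depth limits genes near 3 UMIs per sum.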
